A study of Mus musculus with 12 samples.

Results

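Smooth muscle cells and preadipocytes sorted from the aorta and surrounding fat of newborn mice were compared gene by gene. All genes of the count table entered the comparison, and the libraries were the 3 of smooth muscle cells and the 3 of preadipocytes, 6 of the 12 libraries in the series. The tissue was the aorta with its attached perivascular adipose tissue, taken from CD-1 pups of both sexes at postnatal day 3. No transgene, treatment or deletion is named for either group, and both groups share the same enzyme digestion and flow sorting. The sources used here do not give the gates of either population, so surface markers among the genes below may have served in the sort. How many pups stand behind a library, and whether replicates came from separate litters, is not given. The p-values thus reflect the spread among these 6 libraries, which may be technical.

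Vascular smooth muscle cells contract through actin and a smooth muscle form of myosin, and in the growing aorta they also lay down the elastic sheets of the wall. Their contractile genes are controlled by serum response factor and its partner myocardin, which bind a short DNA element, the CArG box. Preadipocytes are cells committed to become fat cells. The nuclear receptor PPAR-gamma and C/EBP-alpha drive that step, and thermogenic fat, the kind that lies around the thoracic aorta of young mice, adds many mitochondria and the uncoupling protein UCP1.

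Levels are given in CPM, counts scaled to a common library total after TMM scaling, a correction for differences in library makeup. Where 3 values are listed for a group they stand for replicates 1, 2 and 3. Fold changes are log2, smooth muscle minus preadipocyte, with the standard error (SE) of edgeR's quasi-likelihood fit, and a gene was called at an adjusted p below 0.05 over all genes tested. Of 36512 genes in the table, 20095 had enough counts to be tested. Smooth muscle libraries held 11701825 to 13256506 counts and preadipocyte libraries 15148249 to 15739798, so that a count of 0 allows a level of up to 0.191 to 0.256 CPM before scaling, counting error alone.

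Marker genes were summed to set their levels beside the labels. The summed level of 8 smooth muscle markers (Myh11, Acta2, Tagln, Cnn1, Smtn, Lmod1, Actg2 and Myocd) was 8648, 8035 and 7844 CPM in smooth muscle libraries and 218, 255 and 159 CPM in preadipocyte libraries. For 8 preadipocyte markers (Pparg, Cebpa, Fabp4, Lpl, Cd36, Plin1, Adipoq and Pdgfra) the sums were 163, 177 and 175 CPM against 8939, 10051 and 6780 CPM. All 16 were called in the labelled direction. The gene lists that hold these markers were chosen with earlier results of these data known, and surface markers may have served in the sort. The agreement is thus no independent check of the labels. The 8 preadipocyte markers include genes of mature fat cells, Plin1 and Adipoq. Of a list of 15 markers of committed preadipocytes, given further on, 6 were lower in smooth muscle and 5 were higher. Of all genes tested, 30.3% were called lower and 32.6% higher. That list summed to 3238, 3179 and 3301 CPM in smooth muscle and to 10084, 10509 and 8796 CPM in preadipocyte libraries. Pparg, Fabp4, Lpl and Cd36 are in both lists. In these bulk libraries fewer cells with the transcript and less transcript per cell cannot be told apart.

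The populations differed at most genes tested. In all, 12638 genes were called, 62.9% of those tested, with 6549 higher in smooth muscle (32.6%) and 6089 lower (30.3%). The groups' libraries did not overlap at 14054 genes, 69.9% of those tested. A difference of at least 2-fold was called at 5578 genes higher (27.8%) and 4073 lower (20.3%). At 16-fold or more the counts were 409 higher and 120 lower in smooth muscle. The balance depends on scaling: with library size alone the median of all genes moved by 0.264 on the log2 scale and the calls were 7901 higher and 4804 lower, 62.2% higher in place of 51.8%. The median log2 fold change over all genes tested was 0.08, against which the list medians below can be read.

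**Figure D1:**
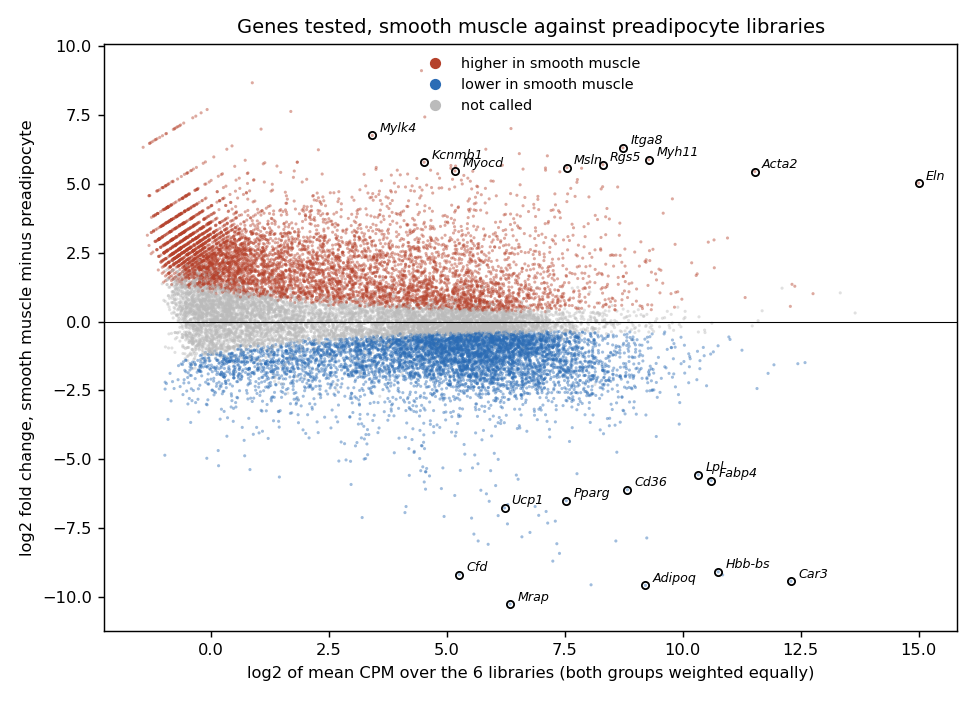
Log2 fold change (smooth muscle minus preadipocyte, vertical axis) against log2 mean CPM (horizontal axis) for the 20095 genes tested. Red points were called higher in smooth muscle, blue lower and grey not called. Eln is the most abundant of the circled genes, and Adipoq, Car3 and Mrap lie at the bottom, below a log2 fold change of -9.

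Among abundant genes outside the lists, 4 were among the 12 widest increases. Clca3a2, a calcium-activated chloride channel regulator, was at 139, 215 and 135 CPM in smooth muscle and at 0.342, 2.65 and 0.804 CPM in preadipocytes (128-fold, SE 0.52 on the log2 scale, adjusted p = 3.25e-06). Without preadipocyte replicate 2, its highest preadipocyte library, the log2 fold change was 8.07. The matrix protein Ccn5 was at 128, 102 and 105 CPM against 1.23, 2.29 and 0.877 CPM (6.25), and Susd5 (6.09) and Map3k7cl (6.01) followed. No smooth muscle library came near a preadipocyte library at these genes. Among the widest decreases was Gpd1, which makes the glycerol backbone of triglycerides, at 3.36, 2.62 and 3.19 CPM against 703, 1129 and 461 CPM (-7.96). Exons of Clca3a2 and Gpd1 overlap predicted genes.

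Library content also differed between the groups. Olfactory and vomeronasal receptor genes, used in sensory neurons, held 711 to 1030 CPM by library size in smooth muscle and 36.8 to 190 CPM in preadipocyte libraries, and were taken as a measure of even background counts. At that background, more than 50% of the smooth muscle counts of 707 of the 6549 genes called higher would be background, and under 10% of those of 2993. After subtracting it, 5331 genes were called higher and 5358 lower. Preadipocyte replicate 3 stood apart from the other libraries on the second principal component, which held 9.65% of the variance against 81.8% on the first. Haemoglobin genes took 1.84% of its counts. Their share was 0.114% in preadipocyte replicate 1, 0.129% in replicate 2 and no more than 0.00336% in any smooth muscle library. Without preadipocyte replicate 3, 8040 genes were called higher and 6597 lower. Lars2, one of the 5 most abundant genes of each group, was uneven among the preadipocyte libraries. By library size it was at 14218, 1719 and 2837 CPM in them and at 11869 to 21524 CPM in smooth muscle. Without preadipocyte replicate 1, 6578 genes were called higher and 6380 lower. The part of these measures in the results was not tested beyond those refits.

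The contractile apparatus was higher in smooth muscle almost throughout. Of 36 genes tested, 33 were called higher and none lower, with a median log2 fold change of 3.11. Acta2, smooth muscle alpha actin, reached 6041, 5579 and 5714 CPM in smooth muscle and 139, 164 and 95.4 CPM in preadipocyte libraries, a log2 fold change of 5.44 (SE 0.26, adjusted p = 4.89e-07). Myh11, the smooth muscle myosin heavy chain, stood at 1405, 1315 and 960 CPM against 21.4, 23 and 18.5 CPM (5.87, SE 0.23, adjusted p = 3.53e-07). Both genes were thus present in every preadipocyte library, at levels far below any smooth muscle library. In mm10 coordinates, Acta2 spans 34241090 to 34255590 of chromosome 19, and Myh11 spans 14194535 to 14291372 of chromosome 16.

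All 5 genes of the thick filament and all 9 of the thin filament were called higher. Myl9, the regulatory light chain whose phosphorylation starts contraction, was at 1662, 1612 and 1775 CPM against 77.5, 87.6 and 66.4 CPM. Mylk4, a member of the myosin light chain kinase family, had the widest difference of the list, 25.2, 22.3 and 16.2 CPM against 0.342, 0.143 and 0.0731 CPM (6.75, SE 0.41, adjusted p = 1.20e-06). Its preadipocyte level rests on 8 counts, which gives a log2 ratio of 6.81 with an exact 95% counting interval of 5.82 to 8.03, and without preadipocyte replicate 1 the log2 fold change was 7.40. An even background would hold 50% of its preadipocyte counts, and with that subtracted the log2 fold change was 7.80. Lmod1, which nucleates actin filaments, was at 74.6, 62 and 77.5 CPM against 1.57, 1.43 and 1.24 CPM. In each of these the lowest smooth muscle library was far above the highest preadipocyte library. Calponin (Cnn1, 5.43), tropomyosin 2 (Tpm2, 4.89) and the phosphatase inhibitor Ppp1r14a (4.75) had log2 fold changes of similar size. Tagln, usually among the most abundant smooth muscle transcripts, was counted at only 8.06, 10 and 11.9 CPM in smooth muscle. Its exons overlap other annotated genes, and no source used here says whether the counting used strand, so its level is uncertain.

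Other members of the list differed less. Rock2, a kinase that keeps myosin phosphorylated, was called with a log2 fold change of 0.78. Des, the muscle intermediate filament, was at 22.6, 18.6 and 21.6 CPM against 14.5, 21.6 and 8.4 CPM, with overlapping groups and no call (0.50, SE 0.30, adjusted p = 0.174). It was called without preadipocyte replicate 2 (0.80, adjusted p = 0.0274) and with library size alone (0.76, adjusted p = 0.0485). Of the 16 genes of intermediate filaments and dense plaques, 14 were called higher, among them the actin crosslinker Flna at 4054, 3774 and 2747 CPM against 503, 473 and 321 CPM.

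Promoters of contractile genes are shown here because the CArG box is the site that myocardin and serum response factor use. RefSeq promoters (GRCm38.p6) were found for 30 of the 36 genes, and only the 250 bases before the start site were searched. The box, written CC, 6 letters of A or T, then GG, reads the same on both strands. It was present in 5 of 30 promoters (16.7%) and in 1.62% of all 27025 genes with a promoter. These were Myl9, Myl6, Vcl, Fhl1 and Ldb3. The search with a single C or G among the 6 inner letters, added after seeing the data, matched 4 of 30 (13.3%) against 8.33% of all genes, and Acta2 holds 2 such matches. The lines below show 4 of the 5 promoters with the box, and Acta2 for its pair of looser matches, 5′ to 3′ on the gene's strand with the matches in capitals. Myl6 and the looser matches of Myl9, Synm and Pdlim3 are not shown. They come from chr19:34255374-34255487 (Acta2, minus strand), chr2:156775273-156775342 (Myl9, plus), chr14:20929148-20929210 (Vcl, plus), chrX:56779551-56779620 (Fhl1, plus) and chr14:34588682-34588746 (Ldb3, minus).
Acta2: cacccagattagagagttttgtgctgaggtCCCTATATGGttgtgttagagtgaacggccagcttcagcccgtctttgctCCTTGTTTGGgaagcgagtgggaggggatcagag
Myl9: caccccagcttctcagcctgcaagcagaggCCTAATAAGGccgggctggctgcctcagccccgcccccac
Vcl: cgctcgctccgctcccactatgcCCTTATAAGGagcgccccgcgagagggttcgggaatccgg
Fhl1: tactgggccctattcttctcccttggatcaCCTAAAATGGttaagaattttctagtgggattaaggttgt
Ldb3: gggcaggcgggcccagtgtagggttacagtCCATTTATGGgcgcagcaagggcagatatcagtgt
The first bases of the 2 Acta2 matches lie 84 and 34 bases before the start. A match describes the letters only. Of the genes shown, Vcl (vinculin, which ties actin to adhesions) was at 427, 407 and 245 CPM against 83, 110 and 74.8 CPM, and Fhl1, a LIM domain protein of muscle, at 709, 735 and 629 CPM against 200, 251 and 163 CPM.

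Transcription factors of mural cells were higher in smooth muscle at 18 of 22 genes tested, and none was called lower (median 1.66). Myocd, the myocardin gene, was at 80, 74.8 and 56.7 CPM in smooth muscle and at 0.889, 1.93 and 1.97 CPM in preadipocytes (5.46, SE 0.30, adjusted p = 7.61e-07). Srf, the factor it partners, was at 42.7, 38.5 and 40.8 CPM against 53.8, 44.9 and 44.9 CPM and was not called (-0.24, SE 0.15, adjusted p = 0.196). Whether the 2 fold changes differ from each other was not tested, and with library size alone that of Srf turned to 0.03. Foxc2, a forkhead factor of vessel development, was at 106, 94.3 and 127 CPM against 4.1, 4.87 and 2.48 CPM (4.83). Mef2c (3.58), Foxs1 (3.50) and Foxc1 (2.59) were also called higher. Gata6, a regulator of the vascular smooth muscle state, was at 199, 196 and 224 CPM against 54, 66.9 and 40.8 CPM (1.94).

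**Figure D2:**
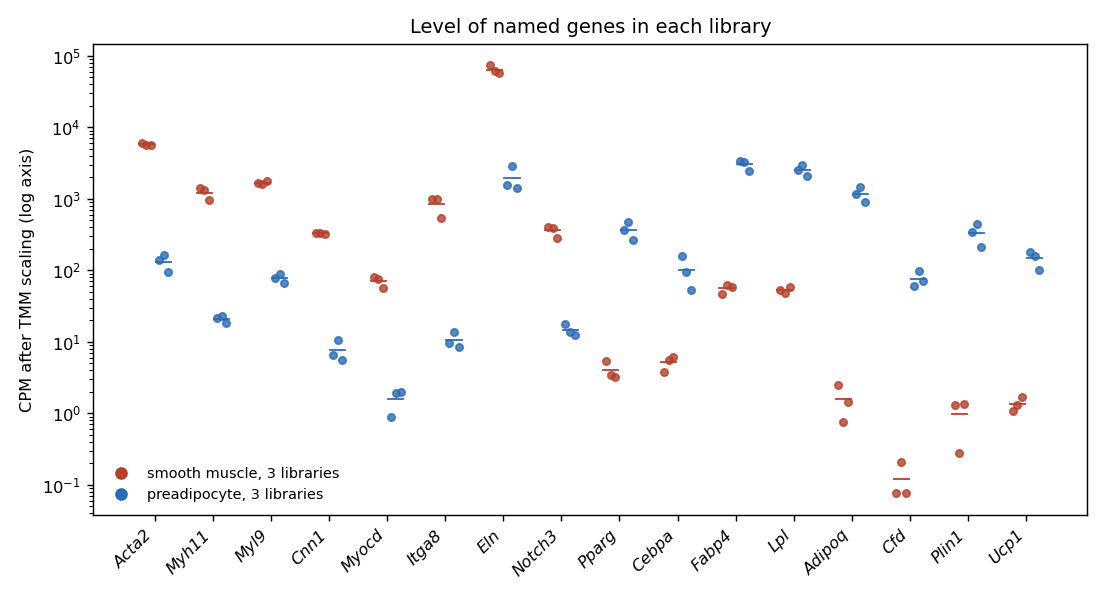
CPM on a log axis for 16 genes, 3 smooth muscle libraries (red) and 3 preadipocyte libraries (blue) each, with a bar at the group mean. The 8 genes on the left, from Acta2 to Notch3, are higher in every smooth muscle library, and the 8 on the right, from Pparg to Ucp1, in every preadipocyte library.

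Ion channels and calcium handling genes were called higher at 28 of 34 and lower at 2 (median 2.06). All 5 voltage-gated calcium channel subunits tested were higher, among them Cacna1c, the L-type pore that admits calcium for contraction, at 52.2, 45.5 and 43.3 CPM against 7.31, 3.36 and 7.97 CPM. Kcnmb1, the smooth muscle subunit of the large calcium-activated potassium channel, was at 46.4, 47.1 and 41.5 CPM against 0.273, 1.15 and 1.02 CPM (5.78, SE 0.37, adjusted p = 1.45e-06). Its pore Kcnma1 differed less, with a log2 fold change of 2.96. Ano1, a calcium-activated chloride channel, was at 236, 220 and 198 CPM against 9.78, 15.2 and 9.35 CPM. Jph2, which couples calcium stores to the cell surface, had a log2 fold change of 5.30. The 2 genes called lower act on the same calcium pump family: Sln, the inhibitor sarcolipin, at 0.86, 2.14 and 2.05 CPM against 7.86, 12.2 and 11.5 CPM (-2.63), and the pump Atp2a3 at 30.5, 33.5 and 25.4 CPM against 52.1, 60.7 and 33.4 CPM (-0.71, SE 0.23, adjusted p = 0.0199). The call of Atp2a3 was lost without smooth muscle replicate 1 (adjusted p = 0.058) or 3 (adjusted p = 0.0629), with library size alone (-0.44, adjusted p = 0.114) and after subtracting the even background (-0.52, adjusted p = 0.0656).

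Receptors and enzymes of vascular tone were called higher at 22 of 29 and lower at 2 (median 2.07). The dilator side was led by soluble guanylate cyclase, the receptor of nitric oxide. Its subunit Gucy1a1 was at 372, 398 and 297 CPM against 13.3, 22 and 17 CPM (4.35, SE 0.23, adjusted p = 6.09e-07), and Gucy1b1 and the kinase Prkg1 had log2 fold changes of 4.05 and 3.67. Of 13 constrictor receptors, 9 were higher, among them the endothelin receptors Ednra (2.24) and Ednrb (2.61) and the thromboxane receptor Tbxa2r (2.75). Rgs5, which shortens G protein signals and marks mural cells, was at 570, 680 and 616 CPM against 12.2, 14.6 and 9.35 CPM (5.69). The 2 receptors lower in smooth muscle were S1pr3, for sphingosine 1-phosphate, at 65.5, 52.7 and 71 CPM against 140, 192 and 104 CPM (-1.20), and the prostaglandin E receptor Ptger3 (-0.99).

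Notch signalling, by which neighbouring cells instruct the mural fate, was higher at 11 of 16 genes and lower at none (median 1.07). Of the 4 receptors, 2 were called. Notch3, the mural receptor, was at 410, 393 and 286 CPM against 17.7, 13.9 and 12.3 CPM (4.63, SE 0.22, adjusted p = 4.89e-07), Notch2 differed by 0.89 and was called, and Notch1 was not called (0.49, SE 0.24, adjusted p = 0.0951). Notch1 was called without preadipocyte replicate 1 (0.66, adjusted p = 0.0262), with library size alone (0.75, adjusted p = 0.022), and after subtracting the even background (0.68, adjusted p = 0.03) or adding a replicate block (0.55, adjusted p = 0.0407). The ligand Jag1 was at 441, 437 and 278 CPM against 61.5, 71.9 and 36 CPM (2.77). Among the target genes, Heyl (4.05) and Hey2 (3.88) had larger log2 fold changes than Hey1 (1.24), and all 3 were called.

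Elastin stood out by amount. Eln, the elastin gene, was at 73532, 60645 and 56932 CPM in smooth muscle and at 1568, 2902 and 1417 CPM in preadipocytes (5.02, SE 0.36, adjusted p = 2.66e-06), 32.5-fold, and was the most abundant gene of the smooth muscle libraries. Its exons overlap the predicted gene Gm30003. Of 18 elastic fibre genes, 14 were called higher and 1 lower, with a median of 1.70. The latent TGF-beta binding proteins Ltbp2 (3.01) and Ltbp1 (2.30) and the fibulin Efemp1 (2.55) were higher, and fibrillin 2 (Fbn2) was the gene called lower, at 90.8, 97.4 and 110 CPM against 218, 167 and 105 CPM, with preadipocyte replicate 3 inside the smooth muscle range. Its call (-0.71, SE 0.24, adjusted p = 0.0235) was lost without preadipocyte replicate 1 (adjusted p = 0.0558) or smooth muscle replicate 1 (adjusted p = 0.0837) or 2 (adjusted p = 0.0585), with library size alone (-0.46, adjusted p = 0.125) and after subtracting the even background (-0.52, adjusted p = 0.0792).

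Collagens and proteoglycans were divided, with 16 of 30 higher, 5 lower and a median of 0.72. Tenascin C (Tnc), a matrix protein of growing tissue, was at 594, 576 and 419 CPM against 54.1, 32.9 and 23 CPM (3.85), and fibronectin (Fn1) had a log2 fold change of 2.96. The small proteoglycans went different ways: biglycan (Bgn) was higher in smooth muscle (1.86), while lumican (Lum, -1.13) and prolargin (Prelp, -1.95) were higher in preadipocytes. Col3a1, abundant in both, was at 13166, 15688 and 13947 CPM against 12693, 12535 and 9403 CPM and was not called (0.31, SE 0.21, adjusted p = 0.233), although it was with library size alone (0.57, adjusted p = 0.0362) and after subtracting the even background (0.53, adjusted p = 0.0375).

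Genes of the basement membrane and its receptors were higher at 21 of 27 and lower at 2 (median 2.06). Itga8, the integrin chain that binds nephronectin and fibronectin, was at 998, 981 and 544 CPM against 9.78, 13.7 and 8.48 CPM (6.30, SE 0.32, adjusted p = 5.48e-07), although its exons overlap another annotated gene. Lama5, a laminin alpha chain, was at 305, 249 and 246 CPM against 7.86, 5.37 and 3.58 CPM (5.57). The laminin chain Lama4 went the other way, at 232, 229 and 178 CPM against 373, 420 and 244 CPM (-0.70, SE 0.21, adjusted p = 0.0155), as did the fibronectin receptor chain Itga5 (-0.47). With library size alone both calls were lost (-0.43, adjusted p = 0.0996, and -0.20, adjusted p = 0.246), as they were with the even background subtracted (adjusted p = 0.0652 and 0.139), that of Lama4 also without smooth muscle replicate 3 (adjusted p = 0.0509) and that of Itga5 without smooth muscle replicate 1 (adjusted p = 0.0595). All 6 collagen IV chains were higher, from 1.67 for Col4a1 to 4.77 for Col4a6.

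Growth factor pathways were also mostly higher in smooth muscle. Of 32 TGF-beta and BMP genes, 22 were higher and 3 lower (median 1.20). The ligands Inhba, at 74.1, 68.5 and 90.9 CPM against 2.6, 2.86 and 1.83 CPM (4.99), and Tgfb2 (4.64) led, together with the target Ccn2 (4.52). Gdf10, Tgfbr3 and Id1 were the 3 called lower, with log2 fold changes of -0.91, -0.89 and -0.58, and Id1 lost its call with library size alone (-0.32, adjusted p = 0.0719). Among 11 IGF genes, 6 were higher and 1 lower. The binding proteins Igfbp5, at 702, 731 and 853 CPM against 28.3, 33.1 and 15.9 CPM (4.88), and Igfbp2 (4.63) were higher, while the ligand Igf1 was at 80.4, 112 and 99.3 CPM against 339, 351 and 320 CPM (-1.79, SE 0.16, adjusted p = 9.69e-06). Hedgehog receptors and effectors were higher at 7 of 10 and lower at none, with Hhip at 13, 15.8 and 15.7 CPM against 2.26, 3.79 and 2.48 CPM (2.38).

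**Figure D3:**
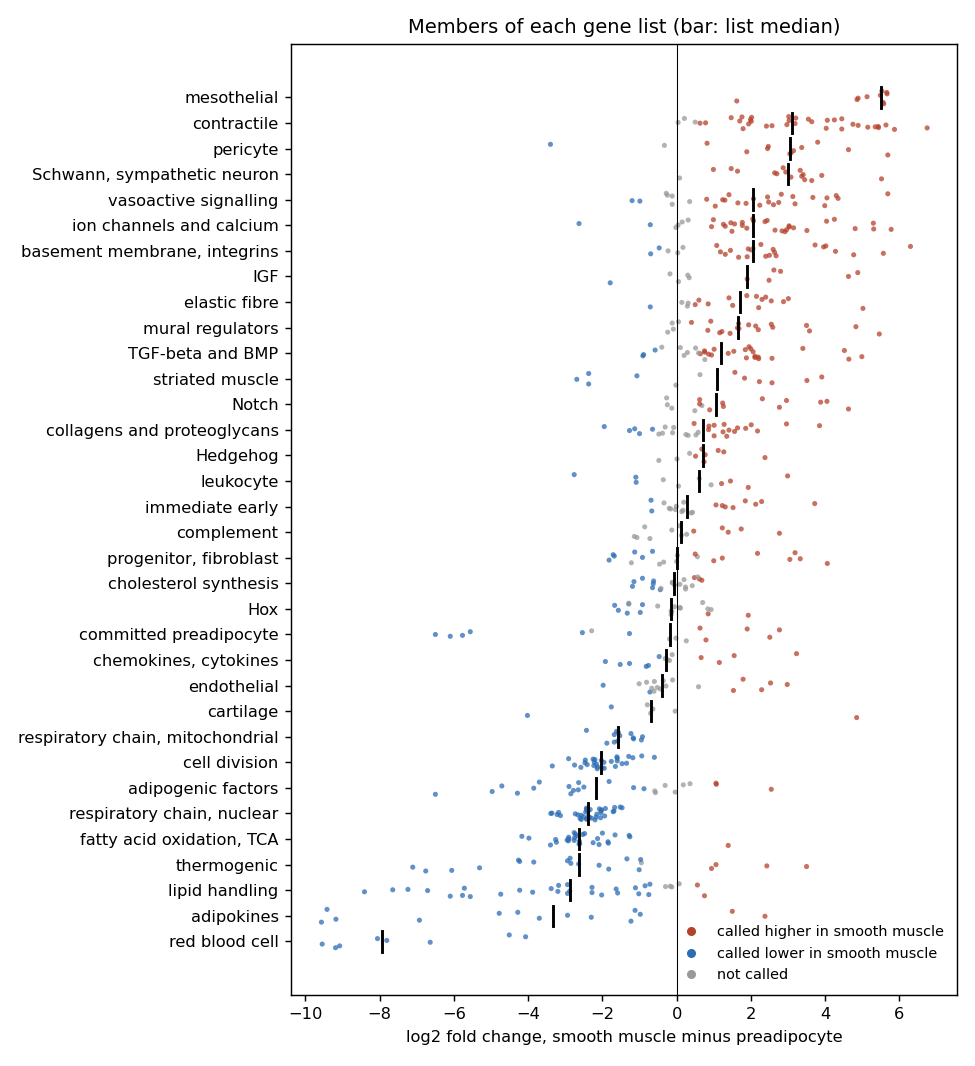
Log2 fold change of each tested member of 34 gene lists (one row per list, bar at the list median), red where called higher in smooth muscle, blue where called lower and grey where not called. The medians of the contractile, mural, channel and matrix lists lie to the right of 0, and those of the lipid, thermogenic, respiratory and cell division lists to the left, with single members of several lists on the other side. The cholesterol, Hox and immediate early lists straddle 0.

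The adipogenic program was lower in smooth muscle, with exceptions among its regulators. Of 24 transcription factors and coactivators, 15 were called lower, 3 higher and 6 not called (median -2.16). Pparg was at 5.47, 3.45 and 3.19 CPM in smooth muscle and at 362, 468 and 269 CPM in preadipocytes (-6.50, SE 0.30, adjusted p = 4.89e-07), 90.8-fold. Cebpa was at 3.75, 5.59 and 6.22 CPM against 158, 95.5 and 52.5 CPM (-4.29), with widely spaced values among the preadipocyte libraries. Ebf2, a factor of brown fat precursors, was at 25, 25.9 and 27.4 CPM against 412, 437 and 286 CPM (-3.85). In mm10 coordinates, Pparg spans 115360951 to 115490399 of chromosome 6.

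Other regulators of fat cells did not follow. Cebpb, an early adipogenic factor that also answers stress, was at 141, 138 and 193 CPM against 373, 254 and 74.7 CPM and was not called, with preadipocyte replicate 3 below every smooth muscle library (-0.57, SE 0.44, adjusted p = 0.275). Without that library it was called lower (-1.05, adjusted p = 3.64e-05). Prdm16, a coregulator of brown fat identity that also acts in arteries, was higher in smooth muscle, at 57.6, 41.8 and 53.4 CPM against 35.7, 23.6 and 14.1 CPM (1.06, SE 0.29, adjusted p = 0.0102). The thyroid hormone receptor Thrb (2.55) and the zinc finger factor Zfp516 (1.07) were higher too.

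Genes of lipid uptake and storage were higher in preadipocytes. Of 33 lipid genes tested, 27 were lower in smooth muscle and 2 higher (median -2.88), and all 13 genes of triglyceride synthesis and droplets were among the 27. Lpl, the lipase that frees fatty acids from lipoproteins, was at 52.9, 48.6 and 59 CPM against 2525, 2949 and 2087 CPM (-5.56, SE 0.22, adjusted p = 3.56e-07). Plin1, which coats the lipid droplet, was at 1.33, 0.276 and 1.37 CPM against 340, 449 and 213 CPM (-8.41). The even background would hold 66.7% of its smooth muscle counts, and with that subtracted the log2 fold change was -9.75. The droplet protein Cidec (-7.65), the lipolysis inhibitor G0s2 (-7.24) and the fatty acid transporter Cd36 (-6.10) had differences of the same order. Of 9 genes of lipogenesis, 4 were lower, among them the desaturase Scd1 at 18.1, 17.6 and 16 CPM against 80.4, 328 and 60.3 CPM (-3.18, and -2.10 without preadipocyte replicate 2, its highest library). Its relative Scd2 was higher in smooth muscle (0.56, SE 0.20, adjusted p = 0.0339), a call lost without preadipocyte replicate 1 or 3 (adjusted p = 0.15 and 0.0919) or smooth muscle replicate 1 or 2 (adjusted p = 0.111 and 0.195).

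Thermogenic genes were lower at 16 of 21 and higher at 4 (median -2.64). Ucp1 was at 1.09, 1.31 and 1.67 CPM in smooth muscle and at 183, 160 and 102 CPM in preadipocyte libraries (-6.76, SE 0.30, adjusted p = 4.63e-07), 108-fold, and lies on chromosome 8 from 83290352 to 83298452 of mm10. Cox8b, a muscle and brown fat form of a cytochrome oxidase subunit, was at 0.0782, 0.138 and 0.152 CPM against 21.1, 18.2 and 15.5 CPM (-7.11, resting on 5 smooth muscle counts), and the beta-3 adrenergic receptor Adrb3 had a log2 fold change of -6.06. With the even background subtracted, which would hold 60% of the smooth muscle counts of Cox8b and 68.6% of those of Adrb3, the values were -8.08 and -7.47. The creatine kinases of the list ran the opposite way, Ckb at 192, 199 and 242 CPM against 41.8, 44.6 and 31.1 CPM (2.43) and Ckmt1 at 10.2, 11.6 and 13.8 CPM against 0.752, 1.29 and 1.1 CPM (3.50).

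Secreted proteins of fat cells were mostly lower in smooth muscle. Of 14 adipokines, 12 were lower in smooth muscle and 2 higher, with a median of -3.32. Adiponectin (Adipoq) was at 2.5, 0.759 and 1.44 CPM against 1159, 1480 and 911 CPM (-9.57, SE 0.42, adjusted p = 4.41e-07), and Cfd, the complement factor adipsin, at 0.0782, 0.207 and 0.0759 CPM against 60.8, 97.9 and 71.3 CPM (-9.18, and -9.84 without smooth muscle replicate 2). Carbonic anhydrase 3 (Car3), abundant in fat and muscle, was at 24.6, 7.8 and 11.8 CPM against 9493, 13484 and 7141 CPM (-9.42, and -10.02 without smooth muscle replicate 1), one of the 5 most abundant genes of the preadipocyte libraries. Leptin (Lep) was scarce in both, at 1.8, 2.28 and 2.96 CPM against 3.01, 9.38 and 4.17 CPM (-1.23, SE 0.43, adjusted p = 0.0299), and its call was lost without preadipocyte replicate 2 (-0.68, adjusted p = 0.121) or smooth muscle replicate 1 or 2 (adjusted p = 0.103 and 0.071), and with library size alone (adjusted p = 0.075). Sfrp5 (2.38) and Metrnl (1.50) were higher in smooth muscle. Outside the lists, the widest difference among abundant genes was at Mrap, the accessory protein of the melanocortin receptors, at 0.156, 0.069 and 0.152 CPM against 176, 200 and 110 CPM (-10.25). The smooth muscle levels of Cfd and Mrap rest on 5 counts each, and the log2 ratios of summed counts were -9.27 (exact 95% counting interval -10.90 to -8.05) and -10.36 (-11.98 to -9.14). The even background would hold 80% of those counts of Cfd and 100% of those of Mrap. With it subtracted the fitted values were -10.96 and -14.01, which rest on few or no counts and are no bounds.

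Members of gene families were compared per kilobase of exon, over the union of the GENCODE M21 transcripts. Smooth muscle libraries held Acta2 at 2631 ± 108 CPM per kilobase (SD, n = 3), above cytoplasmic beta actin (Actb) at 2211 ± 53.5, then Actg1 at 300 ± 19.5 and Actg2 at 272 ± 12.7, the last 2 within 2 SD of each other. In preadipocyte libraries the order was Actb at 1508 ± 178, Actg1 at 375 ± 50, Acta2 at 60.5 ± 15.8 and Actc1 at 45.4 ± 17.4 CPM per kilobase. There Acta2 and Actc1 lie within 2 SD of each other. Among myosin heavy chains, Myh11 was at 161 ± 30.9, Myh10 at 50.4 ± 7.74 and Myh9 at 19 ± 3.41 CPM per kilobase in smooth muscle, while in preadipocytes Myh10 led at 8.39 ± 0.213, before Myh9 at 4.66 ± 0.966 and Myh11 at 2.76 ± 0.30. By this measure the leading member of both families differed between the populations. In CPM, not divided by length, Actb was the highest actin in smooth muscle as well, at 5923 CPM against 5778 CPM for Acta2.

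Fatty acid binding proteins also differed in their leading member. In preadipocytes Fabp4, the adipocyte form, was at 681 ± 112 and Fabp5 at 212 ± 11.6 CPM per kilobase, with Fabp3, the heart form, at 13.8 ± 3.55 and Fabp7, the brain form, at 1.44 ± 0.137. In smooth muscle Fabp5 led at 52.4 ± 7.29, followed by Fabp3 at 23.2 ± 3.35, Fabp7 at 15.3 ± 2.01 and Fabp4 at 12.5 ± 1.82 CPM per kilobase. The last 2 lie within 2 SD of each other, and the place of Fabp4 comes from its exon length of 4489 bases, which equals the whole span of the gene. In CPM, not divided by length, Fabp4 was at 56.1 in smooth muscle, above Fabp3 and Fabp7 at 19.1 each. Between groups, Fabp7 (3.41, SE 0.23, adjusted p = 2.14e-06) and Fabp3 (0.75, SE 0.23, adjusted p = 0.018) were called higher in smooth muscle and Fabp4 (-5.77) and Fabp5 (-2.02) lower. The call of Fabp3 was lost without preadipocyte replicate 1 (adjusted p = 0.0603) or smooth muscle replicate 1 (adjusted p = 0.0941). All 5 perilipins were lower, from -0.97 for Plin3 to -8.41 for Plin1.

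**Figure D4:**
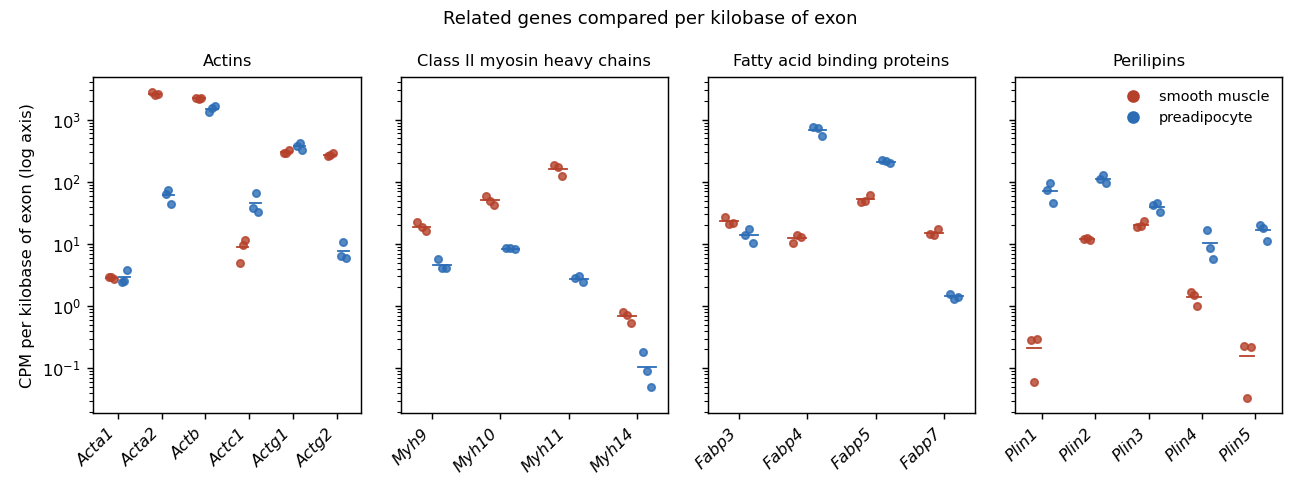
CPM per kilobase of exon on a log axis for actins, class II myosin heavy chains, fatty acid binding proteins and perilipins, 3 smooth muscle (red) and 3 preadipocyte libraries (blue) each, with a bar at the mean. Acta2 and Actb lead the smooth muscle libraries at 2631 and 2211, and Actb leads the preadipocyte libraries at 1508.

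Respiratory chain genes were lower in smooth muscle. All 37 nuclear-encoded subunits were called lower, from -1.47 to -3.39 with a median of -2.38, and so were all 13 genes of the mitochondrial genome (median -1.57). Cytochrome c (Cycs) was at 83.6, 93.6 and 98.3 CPM against 1001, 970 and 862 CPM (-3.36, SE 0.16, adjusted p = 4.89e-07), and the succinate dehydrogenase subunit Sdhd had a log2 fold change of -3.13. The mitochondrial genome took 1.18 to 1.38% of all counts in smooth muscle and 2.56 to 3.43% in preadipocyte libraries.

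Fatty acid oxidation and the TCA cycle followed, with 28 of 29 genes lower and 1 higher (median -2.63). Idh3a, a catalytic subunit of the TCA cycle enzyme isocitrate dehydrogenase, had the widest difference, 76.6, 77.1 and 66.3 CPM against 1328, 1520 and 1098 CPM (-4.17). The gene called higher was Cpt1a, the liver form of the enzyme that admits fatty acids to mitochondria, at 210, 220 and 174 CPM against 55.4, 89.8 and 85.3 CPM (1.39, SE 0.20, adjusted p = 0.00021). Cholesterol synthesis genes showed no common direction, with 7 of 20 lower, 3 higher and a median of -0.08. Among all genes tested, 30.3% were called lower and 32.6% higher. The palindromic NRF1 motif was found in 1 of 27 respiratory chain promoters (3.7%) against 0.877% of all genes, and an exact direct repeat of the PPAR and RXR kind, spaced by 1 base, in none of 24 lipid gene promoters against 0.0407% of all genes, on either strand.

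Cell division genes were lower in smooth muscle at all 29 tested, with a median of -2.03. Their summed level was 1837, 1721 and 1632 CPM in smooth muscle and 5042, 6505 and 9464 CPM in preadipocyte libraries. It was highest in preadipocyte replicate 3, the library that also held the most red cell RNA, with red cell markers at 23548 CPM. Without that library all 29 were still called lower, with a median of -1.79. Birc5, the mitotic survival factor survivin, was at 40.7, 29.1 and 35.7 CPM against 236, 237 and 323 CPM (-2.91, SE 0.20, adjusted p = 1.91e-06). Aurka, a kinase of the mitotic spindle, was at 21.2, 21.1 and 18.1 CPM against 86.5, 115 and 132 CPM (-2.46), and Cdk1, the kinase that starts mitosis, at 70.8, 64.2 and 71.3 CPM against 209, 248 and 242 CPM (-1.76). None of these 3 genes was near 0 in a smooth muscle library.

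The promoters of these genes are known for CCAAT boxes, bound by NF-Y, so 2 are shown. CCAAT was found on either strand within 250 bases before the start in 20 of 24 promoters (83.3%) against 37.5% of all genes, and TTTGAA, the core of the cell cycle element CHR, in 7 of 24 (29.2%) against 18.3%. The stretches lie at chr2:172370571-172370651 (Aurka, minus strand) and chr10:69352913-69353150 (Cdk1, minus strand), and end at the last base before the start. Capitals mark CCAAT, its reverse complement ATTGG, and TTTGAA.
Aurka: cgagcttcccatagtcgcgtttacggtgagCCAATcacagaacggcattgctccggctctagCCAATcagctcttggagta
Cdk1: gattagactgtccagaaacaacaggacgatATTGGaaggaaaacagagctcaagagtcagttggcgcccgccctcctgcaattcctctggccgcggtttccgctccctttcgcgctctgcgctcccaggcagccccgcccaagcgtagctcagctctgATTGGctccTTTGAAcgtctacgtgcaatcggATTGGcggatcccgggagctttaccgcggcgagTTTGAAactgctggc
Counted on the gene's strand alone, CCAAT stood in 13 of the 24 (54.2%) against 21.5% of all genes.

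Progenitor and stromal markers were mixed, with 8 of 20 higher in smooth muscle, 6 lower and a median of 0.01. The shares over all genes tested were 32.6% higher and 30.3% lower, with a median of 0.08. Dpp4, a marker of interstitial progenitors, was at 78.4, 94 and 76.6 CPM in smooth muscle against 3.28, 6.73 and 4.9 CPM (4.06, SE 0.26, adjusted p = 1.45e-06). Pi16, which marks the same progenitors, was at 7.66, 10.2 and 14.4 CPM against 14.8, 20.3 and 9.43 CPM and was not called (-0.46, SE 0.32, adjusted p = 0.225), but was called lower without preadipocyte replicate 3 (-0.76, adjusted p = 0.00781). The PDGF receptors split, Pdgfrb at 600, 595 and 455 CPM against 70.1, 80.4 and 49.5 CPM (3.05) and Pdgfra at 35.6, 43.2 and 32.5 CPM against 143, 147 and 104 CPM (-1.82). Of 15 committed preadipocyte markers, 6 were lower and 5 higher in smooth muscle, to be read beside the same shares. The lower ones included Pparg (-6.50), Cd36 (-6.10), Fabp4 (-5.77) and Lpl (-5.56), and the higher ones Cd9 (2.51), Vcam1 (0.79) and Sparcl1 (0.63).

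Some marker lists of other cell types differed between the groups as well. All 10 mesothelial genes, which mark the lining of the body cavities, were higher in smooth muscle, with summed levels of 1565 to 2093 CPM against 28.1 to 88.5 CPM. Msln, mesothelin, was at 317, 310 and 471 CPM against 5.74, 16.2 and 0.95 CPM (5.58, SE 0.72, adjusted p = 0.000101), and Upk1b (5.67) and Muc16 (5.66, and 6.75 with the even background subtracted) were, like Msln, among the 12 widest increases of abundant genes. Without preadipocyte replicate 2, its highest preadipocyte library, Msln differed by 6.69 and Upk1b by 6.99. Schwann cell and sympathetic neuron genes were higher at 15 of 16, summing to 868 to 1144 CPM against 137 to 210 CPM, with the catecholamine enzyme Th at 89.9, 126 and 122 CPM against 18.1, 18.7 and 15 CPM. Their part in the results above was not tested.

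Pericyte genes, most of which smooth muscle also uses, summed to 2353 to 2746 CPM against 337 to 474 CPM. They were higher at 11 of 13 and lower at 1, Steap4, at 12.2, 14.4 and 13.3 CPM against 111, 169 and 141 CPM (-3.40). Endothelial genes were higher at 5 of 18 and lower at 2, with sums of 268 to 394 CPM against 145 to 358 CPM. The 5 included Esam (2.98), Erg (2.53) and Flt1 (2.29), and the 2 were Egfl7 (-1.98), whose exons overlap Agpat2, and Pecam1. The endothelial marker Pecam1 was at 17, 27.7 and 19.9 CPM against 40.1, 41.9 and 24.6 CPM. Its call (-0.72, SE 0.25, adjusted p = 0.03) was lost without preadipocyte replicate 2 (adjusted p = 0.0652) or smooth muscle replicate 1 (adjusted p = 0.12) or 3 (adjusted p = 0.08), with library size alone (adjusted p = 0.143) and after subtracting the even background (adjusted p = 0.0824). Leukocyte genes were higher at 4 of 11 and lower at 3, with sums of 52.2 to 70.6 CPM against 43.6 to 83.3 CPM. Beside the endothelial and leukocyte counts, 32.6% of all genes tested were called higher and 30.3% lower. No gene of these lists in the table was at 0 in all 6 libraries.

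Red cell genes pointed the other way and rested in size on a single library. All 8 tested were lower in smooth muscle, with sums of 44 to 75.5 CPM against 1522 and 1847 CPM in preadipocyte replicates 1 and 2 and 23548 CPM in replicate 3. Hba-a1, an alpha globin, was at 13.5, 1.59 and 4.02 CPM against 604, 763 and 9668 CPM, a log2 fold change of -9.19, and of -6.83 without preadipocyte replicate 3. Car1 and Cldn13, further genes of the 12 widest decreases, were at 846 and 341 CPM in that library, against 25.2 and 36.7 CPM and 4.58 and 5.65 CPM in preadipocyte replicates 1 and 2. Without it their log2 fold changes were -5.47 and -3.63 in place of -8.69 and -8.08. Striated muscle genes were split, 6 of 12 higher and 4 lower, beside 32.6% and 30.3% of all genes tested. Myh3 (mean 10.9 against 0.948 CPM, 3.51) and Myh8 (6.87 against 0.447 CPM, 3.91) were among the higher. An even background would hold 30.2% of the smooth muscle counts of Myh8. Among the lower, Myh6 was at 4.61, 7.66 and 5.24 CPM against 30.8, 64.8 and 17.4 CPM (-2.69). Of 7 cartilage genes tested, 1 was higher, Acan (4.85), and 2 lower, Sox9 (-1.76) and the cartilage collagen Col2a1. Col2a1 was called lower through preadipocyte replicate 1, which held 197 CPM against 6.3 and 3.29 CPM in the other 2. Without that library the Col2a1 difference was -0.29 and not called (adjusted p = 0.752). The call was also lost without smooth muscle replicate 2 or 3 (adjusted p = 0.0797 and 0.111).

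**Figure D5:**
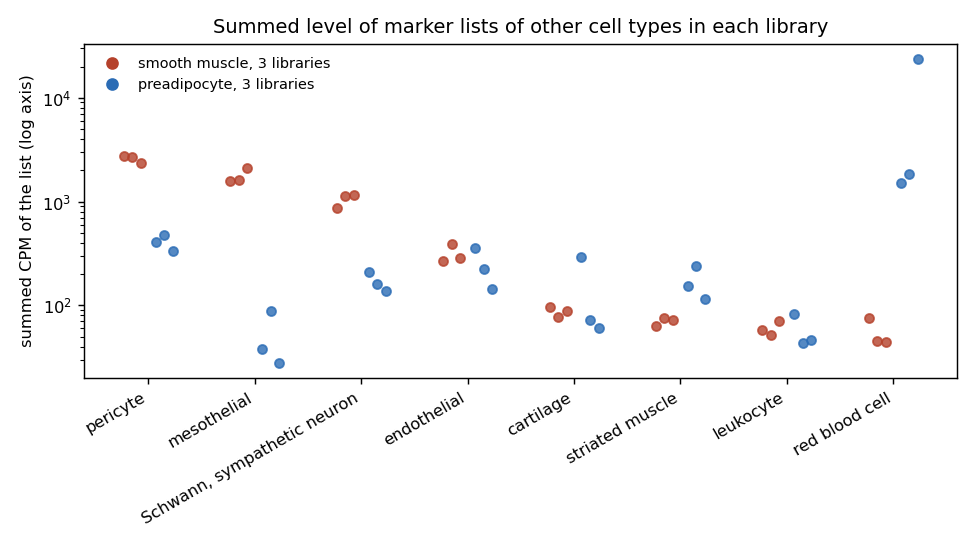
Summed CPM of marker lists of 8 other cell types on a log axis, one point per library, smooth muscle in red and preadipocyte in blue. Pericyte, mesothelial and Schwann and neuron sums are higher in every smooth muscle library, and red cell sums are higher in every preadipocyte library, most of all in replicate 3.

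Genes that answer handling and inflammation showed both directions. Of 20 immediate early and stress genes, 8 were higher in smooth muscle and 2 lower (median 0.29). The orphan nuclear receptors Nr4a2, at 597, 566 and 780 CPM against 50.9, 48.7 and 47.9 CPM (3.72), and Nr4a1 (2.13) were higher, while Jun was lower (-0.67), a call lost with library size alone (-0.41, adjusted p = 0.0734). Of 14 chemokines and cytokines, 6 were lower, among them Cxcl10 (-1.92) and Ccl11 (-1.52), and 4 higher, led by Tslp at 7.51, 5.24 and 6.68 CPM against 0.957, 0.787 and 0.292 CPM (3.23). Genes of the complement list were higher at 5 of 13, lower at none and not called at 8, with a median of 0.13. The complement factor Cfd, counted above among the adipokines and not in that list, was lower (-9.18). Beside the counts of these lists, 32.6% of all genes tested were called higher and 30.3% lower, and the median was 0.08. C3, one of the 5, was at 1002, 1073 and 1241 CPM against 458, 504 and 307 CPM (1.39).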

How the data were processed

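RNA of flow-sorted cells was amplified with the SMART-Seq v4 kit after poly(A) selection, per the labels' protocols. The submitters' processing notes name STAR 2.5.2a, DESeq2 1.26.0 and mm10. No source used here gives the counter, its annotation or its strand setting. Whole-number counts per gene and library, with no scaling, were deposited, and those of 6 libraries were used. Genes were named from GENCODE M21, which matched 36480 of 36512 identifiers. Counts of genes passing filterByExpr were scaled by TMM. The test was edgeR's quasi-likelihood F test (version 4.0.16, R 4.3.3, glmQLFit and glmQLFTest), two-sided, with Benjamini-Hochberg adjustment and calls at 0.05. Replicate libraries were distinct, with a chi-square per degree of freedom of 4.89 to 70.9 between replicates, and the common biological coefficient of variation was 0.244.

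The gene lists, the comparison and the rule for named genes were chosen with earlier results of these data known. The rule took the 12 largest differences in each direction among called genes whose mean log2 CPM was 5 or more and whose groups did not overlap, predicted genes left out; any member of the contractile, mural, channel, vasoactive, Notch, adipogenic, lipid, thermogenic, adipokine and family lists; up to 4 members with the smallest p of other lists and any called against their majority; a few set markers; and the 5 most abundant genes of each group. Exons of 139 of these 387 genes overlap other annotated genes, and their counts are uncertain to that extent.

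On simulated counts over 20095 genes, the test found 21 of the 100 that were changed 2-fold and 78 of the 100 changed 4-fold, with 15 false calls among 114, more than the nominal rate. Only those genes were changed in the simulation, while 62.9% of genes tested were called in the data. Its rates therefore need not hold for the calls above. Alternatives were DESeq2 1.42.0, limma-voom (limma 3.58.1) with quality weights, size factors, library size alone, other filters, all 12 libraries, a replicate block, each library left out, an even background subtracted, dominant genes removed and protein-coding genes alone.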

Additional observations from a re-analysis of the deposited data

How the results depend on the processing

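Nothing called in one direction was called in the other under any alternative run. Genes called higher numbered 5419 to 8040 and genes called lower 5218 to 6597 when 1 library was left out, the highest of both without preadipocyte replicate 3. Requiring at least 5 CPM in 3 libraries left 4138 genes higher. Of the gene lists, most kept their counts within 1.5 times. List medians moved by over 1 SD for 29 of 34 lists under at least 1 alternative: with library size alone every median rose, by 0.25 to 0.28, past 1 SD for 22 lists, and 19 moved so far with the 5 CPM filter and 11 with all 12 libraries. The median changed sign under at least 1 alternative for 8 lists: cholesterol, Hox, progenitor, committed preadipocyte, endothelial, leukocyte, striated muscle and cartilage. Cholesterol genes called lower were 3 with that filter, with the background subtracted or with library size alone, and 3 to 8 when 1 library was left out. With that filter 2 leukocyte and 2 striated muscle genes were higher, since fewer genes were tested. When 1 library was left out, complement genes called higher were 3 to 5 and cartilage genes called lower 1 to 4. DESeq2 called 2 red cell genes, the other 6 having no adjusted p, and 1 cartilage gene. Srf turned to 0.03 with library size alone and was not called under either scaling. That scaling also gave Acta2 2865, Actb 2407, Actg1 326 and Actg2 296 CPM per kilobase in smooth muscle, and Myh10 7.64 and Fabp5 193 in preadipocytes. CCAAT was in 54.2% of cell division promoters on the given strand alone. Where not stated otherwise, the cause was not tested. Mitochondrially encoded and red cell lists have no count with dominant genes removed, which takes out their members.

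The labels number replicates 1 to 3 in both groups without saying what a number shares. Deviations of same-numbered libraries correlated at -0.0396, 0.138 and -0.0855, and those of differently numbered ones at -0.139 to 0.141. Each deviation is from a mean of only 3 libraries, so these values cannot decide whether the numbers pair the libraries. With the replicate block, 6146 genes were called higher and 5763 lower.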

Other observations

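Classes of RNA outside the gene lists differed in their balance. Of 718 lincRNA genes tested, 344 were higher in smooth muscle (47.9%) and 60 lower (8.36%). Antisense genes were higher at 196 of 549 (35.7%) and lower at 43. Processed pseudogenes ran the other way, with 147 of 1262 higher (11.6%) and 632 lower (50.1%), and a median of -0.99. Protein-coding genes were nearly even, 5164 of 15704 higher and 5207 lower. Antisense genes cannot be told from their partners without strand, and pseudogenes share sequence with their parent genes, so these counts are uncertain. The median exon length was 4261 bases for genes higher in smooth muscle and 3360 bases for genes lower, against 3746 over all tested. An even background would hold a median of 12.4% of the smooth muscle counts of genes called higher and 3.2% of those called lower, and its part in these differences was not tested.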
